A study of Mus musculus with 11 samples.

Results

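Nphs1, Magi2, Cd2ap, Plce1, Synpo, Podxl, Ptpro and Wt1 are 8 genes of the podocyte, chosen by symbol from the 25677 genes listed in the count table of mouse kidney, and all 8 were found and passed the filter on low counts. Kidney RNA was sequenced from 3 female C57BL/6J mice (Ctr), 4 untreated female MRL/lpr mice (Lpr) and 4 female MRL/lpr mice injected into the peritoneum with DNase I every day from week 17 (DNase), all 21 weeks old, with 1 library per mouse. The MRL/lpr strain, in which the gene Fas is mutated, develops an autoimmune nephritis resembling lupus, and DNase I digests DNA outside cells. The controls are of another strain, and injections of Ctr or Lpr mice are not given in the sources used here, so that strain, disease and, for DNase, treatment cannot be told apart in a difference from Ctr. DNase and Lpr kidneys share the strain and differ in the treatment.

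Podocytes are the epithelial cells that wrap the capillaries of the glomerulus, and their interlocking foot processes are joined by the slit diaphragm, the last layer of the filtration barrier. The slit diaphragm is built from adhesion proteins such as nephrin, which adaptor proteins tie to the actin of the foot process. Inherited loss of several of these proteins causes nephrotic syndrome, and podocytes are injured in many forms of glomerulonephritis. Whole kidney was measured, of which podocytes are a small part, so fewer podocytes and less RNA per podocyte cannot be told apart.

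Gene counts of the 11 kidneys summed to 33469858 in the smallest and 38460873 in the largest library. The 8 genes had between 232 and 15298 counts per kidney. Over all genes together, counts in kidneys of 1 group spread by 17.5 to 393 times the sampling variance in a chi-square test. This was not computed for the 8 genes alone, and some of them spread little, such as Wt1 in Ctr with a coefficient of variation of 1.85%. How far depth limited the precision of the 8 genes was not tested. One library stood apart. In Lpr 3 (kidneys are numbered within their group) the level of a gene relative to the mean of all kidneys fell by 0.426 on the log2 scale for each doubling of gene length, whereas the other 10 kidneys had slopes of -0.0438 to 0.0837. The 8 genes have lengths between 3.09 kb for Wt1 and 10.7 kb for Plce1 in the FPKM values, and 7 of them are longer than the median gene among those expressed in these kidneys, 3.59 kb. Fold changes of the 8 genes that include Lpr kidneys are therefore given with and without Lpr 3.

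Positions refer to the mouse build GRCm38, the build (mm10) that the labels name. In the GENCODE annotation, Nphs1 spans chr7:30458315-30487223 on the forward strand, Magi2 chr5:19227036-20704792 on the forward strand, Cd2ap chr17:42792951-42876665 on the reverse strand and Plce1 chr19:38481109-38785030 on the forward strand. Podxl spans chr6:31519488-31563981 on the reverse strand, Ptpro chr6:137252319-137463233 on the forward strand and Wt1 chr2:105126529-105173616 on the forward strand. The values cover reads over the exons of each gene as a whole, without telling transcripts apart. Nphs1 shares 597 exon bases with the antisense gene Nphs1os, and since the strand setting of the counting is not given in the sources used here, reads from that stretch cannot be assigned with certainty. Nphs1os itself had at most 5 counts per kidney, and at most 0.262% of the Nphs1 counts of the same kidney. Nphs1 also shares 183 exon bases with the pseudogene Rps12-ps4, and Magi2 shares 203 with Gm29254. Neither of these is listed in the count table.

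Wt1 encodes a zinc finger transcription factor that is known to act on Nphs1 and other podocyte genes. Because it is the member that binds DNA, its core pattern GNGTGGGNG was searched on both strands in the 250 bases before the start of the other genes, taken from RefSeq promoters of GRCm38.p6. Promoters were matched by symbol, and those of 5 of the 8 genes are reported here, Nphs1, Magi2 (with 2 starts), Cd2ap, Plce1 and Ptpro. The pattern was found in 3 of these 6 windows, against 12.7% of all 32851 promoter windows of the same length, and a match describes the letters alone. The sequences are given 5′ to 3′ on the strand of the gene, with the letters of the pattern in capitals (on either strand). Those of Magi2 (chr5:19226796-19227035) and Ptpro (chr6:137252049-137252298), both on the forward strand, are shown as far as the annotated start, as an example with and an example without the pattern. For Nphs1 (chr7:30459821-30459849, forward strand) and Cd2ap (chr17:42876448-42876476, reverse strand) the match is shown with 10 bases on either side. In GENCODE the Nphs1 window lies wholly in exon and the Cd2ap window for 241 of its 250 bases, the matches included. The Plce1 window also lies wholly in exon, so not all windows are sequence outside the annotated genes.
Nphs1: gagtacctgtGAGTGGGTGagagggaggt
Cd2ap: tccaccccccCTCCCACCCccgcctgccg
Magi2: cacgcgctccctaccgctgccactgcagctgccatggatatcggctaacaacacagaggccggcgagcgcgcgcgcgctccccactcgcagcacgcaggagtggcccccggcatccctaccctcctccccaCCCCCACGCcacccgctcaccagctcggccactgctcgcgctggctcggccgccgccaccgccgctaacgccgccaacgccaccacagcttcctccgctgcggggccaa
Ptpro: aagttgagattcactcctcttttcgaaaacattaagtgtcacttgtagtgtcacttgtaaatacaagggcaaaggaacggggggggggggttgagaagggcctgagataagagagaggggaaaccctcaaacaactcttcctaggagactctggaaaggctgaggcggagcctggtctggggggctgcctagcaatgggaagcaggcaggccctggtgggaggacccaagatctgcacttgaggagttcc

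Compared per gene length, in FPKM (fragment counts scaled to gene length and library size), the level of Podxl stood far above the others in every group. In Ctr kidneys Podxl had 77.5 ± 4.38 FPKM (SD, n = 3), followed by Cd2ap with 19.0 ± 3.75, Synpo with 12.6 ± 0.0917, Nphs1 with 9.23 ± 0.501, Wt1 with 6.09 ± 0.0978, Ptpro with 4.42 ± 0.473, Magi2 with 2.30 ± 0.165 and Plce1 with 1.34 ± 0.224 FPKM. No neighbours in this order overlapped between Ctr kidneys. The order rests on the lengths behind the FPKM values, which all length-based results here use. The merged exons in the GENCODE annotation are longer for 3 of the genes. They cover 15.9 kb against 5.91 kb for Cd2ap, 16.0 kb against 10.7 kb for Plce1 and 6.2 kb against 3.09 kb for Wt1. By those lengths these genes would have lower levels, so their places in the order are not settled. In the FPKM values, Ptpro and Wt1 had the opposite order in MRL/lpr mice. Ptpro had 6.28 ± 0.273 FPKM and Wt1 4.07 ± 0.401 FPKM (SD, n = 4) in DNase, and in Lpr they had 4.93 ± 1.19 and 3.62 ± 1.14 FPKM, with Ptpro above Wt1 in each of these 8 kidneys. In DNase kidneys no neighbours overlapped, whereas in Lpr kidneys all neighbours from Synpo downward did. This came mainly through Lpr 3. Without it, only Magi2 (1.83 to 2.25 FPKM) and Plce1 (1.19 to 1.98 FPKM) overlapped in Lpr.

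The groups were compared with edgeR's quasi-likelihood test on the counts, with Benjamini-Hochberg adjustment over all genes tested. Levels are given below as CPM, in which TMM factors correct each library total, and differences as log2 fold changes with their standard error (SE) or 95% confidence interval. A gene was called at an adjusted p under 0.05, with or without an absolute log2 fold change over 2, the rule of the study's methods. With the fold threshold, 0 of the 8 genes were called in each of the 3 comparisons, where 5.78% of all genes tested were called between Lpr and Ctr, 6.01% between DNase and Ctr and 0% between DNase and Lpr. The results below use the adjusted p alone.

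**Figure D1:**
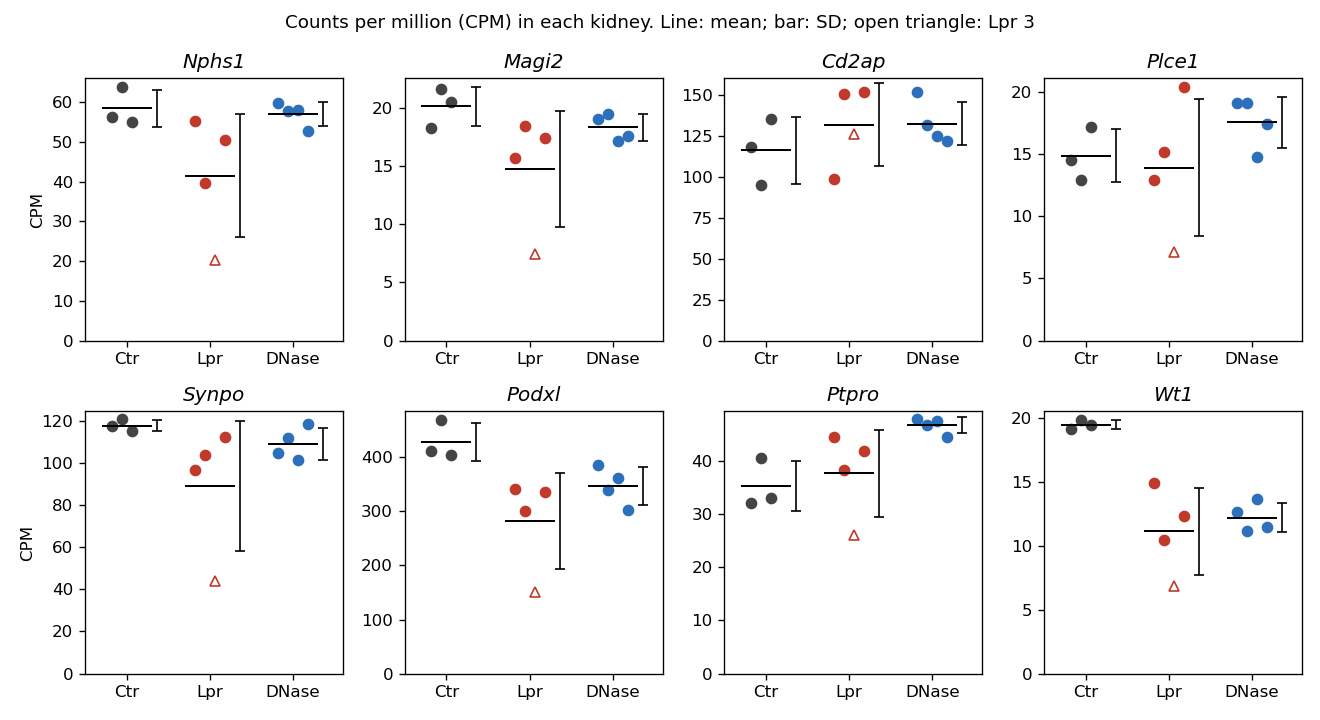
CPM (y axes, from 0) of each of the 8 genes in the kidneys of Ctr (n = 3), Lpr (n = 4) and DNase (n = 4) mice, 1 point per kidney, with the group mean as a line and the SD as a bar. The open triangle is Lpr 3, the lowest kidney of all 11 for 7 of the genes, and Wt1 lies at 6.86 to 14.9 CPM in MRL/lpr and at 19.2 to 19.9 CPM in Ctr kidneys.

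Between Lpr and Ctr, 0 of the 8 genes passed, against 10.2% of the 16074 genes tested, and 1 gene, Wt1, had an unadjusted p under 0.05, against 21.4%. The median log2 fold change of the 8 genes was -0.41, where that of all genes tested was 0.03, and 6 of 8 were negative. Without Lpr 3, Wt1 and Podxl were called lower in Lpr, 2 of 8 genes against 17.8% of all genes called in either direction and 6.79% called lower, and the median was -0.19. In the comparison of DNase with Lpr, 0 of 8 genes passed, and 0% of the 15832 genes tested did so by edgeR. At an unadjusted p under 0.05 there were 0 of the 8 genes and 5.6% of all genes, and DESeq2 called 0 of the 8 and 24 genes in all. All 8 log2 fold changes were positive in this comparison, between 0.004 for Cd2ap and 0.46 for Nphs1. Their median was 0.30, where that of all genes tested was -0.02. Without Lpr 3, 6 of 8 were positive and the median was 0.09, where that of all genes tested was -0.009. Shares of all genes by sign were not counted. Between DNase and Ctr, Wt1 was lower and Ptpro higher, so that 2 of 8 genes were called against 21.7% of the 16100 genes tested (8.61% lower and 13.1% higher). The comparisons with Ctr share the Ctr kidneys, and those with Lpr share the Lpr kidneys.

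**Figure D2:**
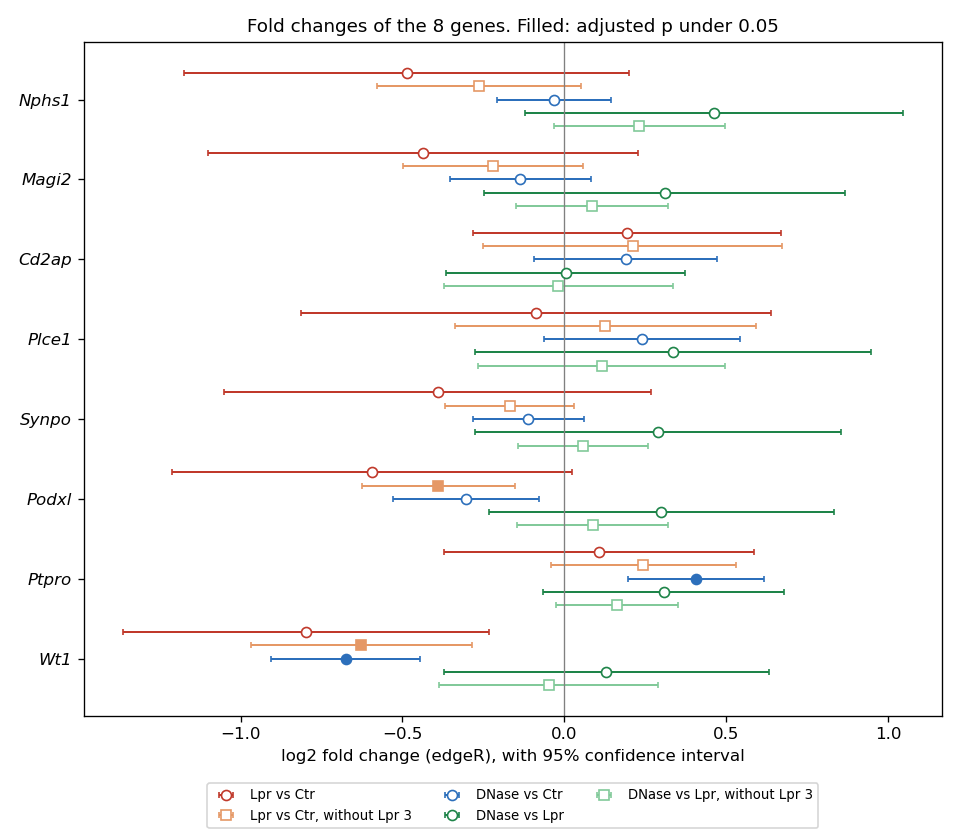
Log2 fold changes (x axis) of the 8 genes from edgeR, with 95% confidence intervals, for the 3 comparisons and for those with Lpr also without Lpr 3. Filled symbols mark an adjusted p under 0.05, which Wt1 reached in DNase vs Ctr and without Lpr 3 in Lpr vs Ctr, Podxl without Lpr 3 in Lpr vs Ctr, and Ptpro in DNase vs Ctr.

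Wt1 was the gene whose level was furthest from Ctr. The Ctr kidneys had 19.2, 19.9 and 19.5 CPM, the Lpr kidneys 14.9, 10.5, 6.86 and 12.3 CPM and the DNase kidneys 12.6, 11.1, 13.6 and 11.5 CPM. Every MRL/lpr kidney lay below every Ctr kidney, and the Lpr and DNase kidneys overlapped. Wt1 fell between Ctr and DNase kidneys, to a fold of 0.626 (log2 fold change -0.68, SE 0.10, adjusted p = 0.00131 by edgeR). This call was lost when all 3 groups entered 1 fit, with an adjusted p of 0.0603 by edgeR. In Lpr the fold was 0.575 (log2 fold change -0.80, SE 0.25, adjusted p = 0.0877 by edgeR). It passed without Lpr 3, with a log2 fold change of -0.63 (adjusted p = 0.0245 by edgeR), and it also passed with DESeq2 (adjusted p = 0.0276), with all 3 groups in 1 edgeR fit (0.0221) and after correction for gene length (0.0392). Against Lpr, the log2 fold change of Wt1 in DNase was 0.13 (95% confidence interval -0.37 to 0.63), and -0.05 without Lpr 3 (-0.39 to 0.29).

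Ptpro encodes a receptor-type tyrosine phosphatase of the apical foot process surface, also called GLEPP1. It had 32.2, 40.7 and 33.0 CPM in Ctr, 44.5, 38.4, 26.1 and 42.0 CPM in Lpr and 48.0, 46.9, 47.6 and 44.6 CPM in DNase. The DNase kidneys had a coefficient of variation of 3.20% and lay above every Ctr and every Lpr kidney, with Lpr 1 next to DNase 4. Ptpro rose between Ctr and DNase, by a fold of 1.33 (log2 fold change 0.41, SE 0.09, adjusted p = 0.0129 by edgeR). This call was lost with all 3 groups in 1 fit (adjusted p = 0.187 by edgeR), after correction for gene length (0.0686), without Ctr 1 (0.0652) and without Ctr 3 (0.0592). The log2 fold change was 0.11 between Lpr and Ctr (95% confidence interval -0.37 to 0.59) and 0.24 without Lpr 3 (-0.04 to 0.53). Against Lpr, Ptpro in DNase had a log2 fold change of 0.31 (-0.07 to 0.68, unadjusted p = 0.0954 by edgeR), and 0.16 without Lpr 3 (-0.03 to 0.35). Ptpro was the single member whose DNase and Lpr kidneys did not overlap, where 3.76% of the genes tested had no overlap.

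Podxl encodes podocalyxin, the charged sialomucin that coats the foot processes and that endothelial cells carry as well. It had 412, 469 and 404 CPM in Ctr, 341, 300, 151 and 336 CPM in Lpr and 386, 340, 361 and 303 CPM in DNase. As with Wt1, all MRL/lpr kidneys lay below all Ctr kidneys, and DNase and Lpr overlapped. The log2 fold change was -0.59 between Lpr and Ctr (SE 0.27, adjusted p = 0.253 by edgeR) and -0.39 without Lpr 3 (SE 0.10, adjusted p = 0.0362 by edgeR). Between DNase and Ctr it was -0.30 (SE 0.10, adjusted p = 0.0604 by edgeR). The latter passed with DESeq2 (adjusted p = 0.0151), after correction for gene length (0.0169) and without DNase 1 (0.0432). For Podxl in DNase against Lpr it was 0.30 (95% confidence interval -0.23 to 0.83), and 0.09 without Lpr 3 (-0.15 to 0.32). A list of 11 glomerular endothelial markers summed to between 740 and 862 CPM in Ctr, 495 and 764 CPM in Lpr and 578 and 806 CPM in DNase. Lpr 3 set the lower end in Lpr, and the other Lpr kidneys had at least 691 CPM. The part of endothelial cells in the level of Podxl was not tested.

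Nphs1 encodes nephrin, the adhesion protein whose chains bridge the slit. It had 56.3, 63.8 and 55.1 CPM in Ctr, 55.2, 39.8, 20.3 and 50.4 CPM in Lpr and 59.8, 57.8, 58.0 and 52.8 CPM in DNase. The DNase and Ctr kidneys overlapped, and 3 of 4 Lpr kidneys lay below every DNase kidney. No comparison of Nphs1 passed. The fold between DNase and Ctr was 0.978, with a 95% confidence interval of 0.866 to 1.10, and the log2 fold change between Lpr and Ctr was -0.49 (-1.17 to 0.20). In DNase against Lpr it was 0.46 (-0.12 to 1.05, adjusted p = 0.854 by edgeR), the largest of the 8 genes. Without Lpr 3, these became -0.26 (-0.58 to 0.05) against Ctr and 0.23 (-0.03 to 0.50) for DNase against Lpr.

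Magi2 and Cd2ap encode scaffold and adaptor proteins at the inner face of the slit diaphragm, and Cd2ap also acts in lymphocytes. Magi2 had 18.3, 21.6 and 20.4 CPM in Ctr, 15.7, 18.4, 7.45 and 17.4 CPM in Lpr and 19.0, 19.5, 17.1 and 17.5 CPM in DNase, so the groups overlapped. Its log2 fold change was -0.44 between Lpr and Ctr (95% confidence interval -1.10 to 0.23), -0.22 without Lpr 3 (-0.50 to 0.06) and -0.14 between DNase and Ctr (-0.35 to 0.08). Against Lpr, Magi2 in DNase had a log2 fold change of 0.31 (-0.25 to 0.87), and 0.09 without Lpr 3.

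Cd2ap did not follow the other genes in Lpr 3. It had 118, 94.8 and 135 CPM in Ctr, 98.3, 151, 126 and 152 CPM in Lpr and 151, 131, 125 and 122 CPM in DNase. The groups overlapped, and within the Ctr and Lpr groups Ctr 2 and Lpr 1 were the lowest. The log2 fold change of Cd2ap was 0.19 between Lpr and Ctr (95% confidence interval -0.28 to 0.67), 0.19 between DNase and Ctr (-0.09 to 0.47) and 0.004 between DNase and Lpr (-0.37 to 0.37). Without Lpr 3 it was 0.21 between Lpr and Ctr (-0.25 to 0.67) and -0.019 between DNase and Lpr (-0.37 to 0.33). Leukocyte and macrophage markers were higher in the MRL/lpr kidneys, with sums of 10 leukocyte markers between 141 and 195 CPM in Ctr, 535 and 914 CPM in Lpr and 463 and 774 CPM in DNase. The corresponding ranges of 11 macrophage markers were 218 to 291, 1167 to 2317 and 900 to 1710 CPM, and none of these markers was at 0 in every kidney. Their part in the level of Cd2ap or of the other genes was not tested.

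Plce1 encodes a phospholipase C that signals at the slit diaphragm, and Synpo encodes synaptopodin, an actin-binding protein of the foot process. Plce1 had 14.5, 12.9 and 17.1 CPM in Ctr, 12.9, 15.1, 7.15 and 20.4 CPM in Lpr and 19.1, 19.1, 14.7 and 17.4 CPM in DNase. Its spread in Lpr was the widest of the 8 genes, with a coefficient of variation of 39.5%, or 24.0% without Lpr 3, and the groups overlapped. The log2 fold change was -0.09 between Lpr and Ctr (95% confidence interval -0.81 to 0.64), 0.13 without Lpr 3 (-0.34 to 0.59), and 0.24 between DNase and Ctr (-0.06 to 0.54). It was 0.34 between DNase and Lpr (-0.28 to 0.95), and 0.12 without Lpr 3.

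Synpo had 118, 121 and 115 CPM in Ctr, 97.0, 104, 43.8 and 112 CPM in Lpr and 105, 112, 102 and 119 CPM in DNase. The Ctr kidneys had a coefficient of variation of 2.41%, and all Lpr kidneys lay below them. The log2 fold change of Synpo was -0.39 between Lpr and Ctr (95% confidence interval -1.05 to 0.27), -0.17 without Lpr 3 (-0.37 to 0.03) and -0.11 between DNase and Ctr (-0.28 to 0.06). For DNase against Lpr it was 0.29 (-0.28 to 0.85), and 0.06 without Lpr 3. Counting kidneys that do not overlap, 3 of the 8 genes (Podxl, Synpo and Wt1) lay lower in all Lpr than in all Ctr kidneys, where 11.4% of genes tested did so and 25.6% did not overlap in either direction. Between DNase and Ctr the groups did not overlap for Podxl, Wt1 and Ptpro, 3 of 8 genes against 31.9%.

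How much of the low values of Lpr 3 went with gene length was measured from its ratio to the mean of the other Lpr kidneys. Relative to that mean, Lpr 3 held 41.9% for Nphs1, 42.0% for Synpo, 43.4% for Magi2, 44.3% for Plce1, 46.3% for Podxl, 54.5% for Wt1, 62.6% for Ptpro and 94.3% for Cd2ap. Ptpro, with a length of 7.68 kb, had a log2 ratio of -0.68, where the median of 1982 genes of similar length (within 1.25-fold) was -0.66. Nphs1, with 6.10 kb, had -1.25 against a median of -0.54, and Wt1, with 3.09 kb, had -0.88 against -0.05. The distance of Wt1 from its class depends on the length used. Its merged GENCODE exons cover 6.2 kb, and genes around 6.275 kb had a median of -0.54 and a lower quartile of -0.97. By that length Wt1 would still lie below the median, but above the lower quartile. Cd2ap, with 5.91 kb, lay above its length class, with -0.08 against -0.52. Among other podocyte genes, the short Tcf21 (1.25 kb), a transcription factor, had a log2 ratio of 1.47. Podxl, Synpo, Plce1 and Magi2 also had ratios below the median of their length class, Ptpro lay at that median and Cd2ap was the single gene above it.

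**Figure D3:**
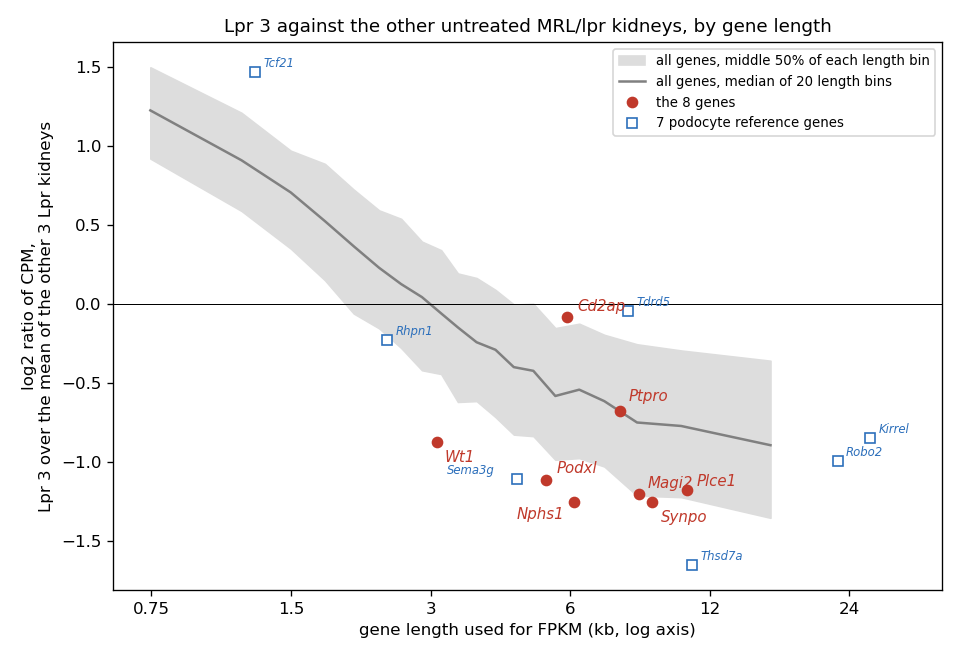
Log2 ratio of CPM in Lpr 3 over the mean of the other 3 Lpr kidneys (y axis) against the gene length behind the FPKM values (x axis, log scale), for the 8 genes (circles) and 7 other podocyte genes (squares), with the median and middle 50% of all genes in 20 length bins (line and band). The ratio falls with length over all genes, Ptpro lies on the line, Cd2ap above it and the other 6 genes below it.

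As a second reading, each gene was set against other podocyte genes of the same kidney, by subtracting the mean log2 CPM of 8 reference genes, of which Kirrel, Tcf21, Rhpn1, Thsd7a, Robo2, Sema3g and Tdrd5 are reported here. This mean was between 4.77 and 4.99 in Ctr, 4.39 and 5.01 in Lpr and 4.79 and 5.07 in DNase, so that the groups overlapped. Of these 7 genes Sema3g rose and Tcf21 and Thsd7a fell between Ctr and DNase by edgeR, so the reference is not itself constant. Relative to it, the mean log2 level of Wt1 was -0.58 ± 0.085 (SD, n = 3) in Ctr, -1.30 ± 0.248 (n = 4) in Lpr and -1.32 ± 0.225 (n = 4) in DNase. The differences from Ctr were -0.73 and -0.74, and no MRL/lpr kidney overlapped with a Ctr kidney (p = 0.0571 for both, two-sided exact permutation test, the smallest p that 3 against 4 kidneys allow). Podxl differed from Ctr by -0.54 in Lpr and -0.37 in DNase, and Magi2 by -0.39 and -0.20, also without overlap and with the same exact permutation p of 0.0571. Nphs1 lay lower without overlap in Lpr, by -0.45, and overlapped in DNase, and Ptpro lay higher without overlap in DNase, by 0.35. In all, 4 of 8 genes did not overlap between Lpr and Ctr, against 22.4% of the genes tested on this scale, and 4 of 8 between DNase and Ctr, against 26.2%. With the median of the reference genes in place of their mean, fewer genes had no overlap between Lpr and Ctr, as given in the closing section. Without Lpr 3, the same 4 genes lay lower and Ptpro higher in Lpr than in Ctr, 5 of 8 genes against 31.5%, each with an exact permutation p of 0.1, the smallest for 3 against 3 kidneys. DNase and Lpr overlapped for all 8 genes, where 4.23% of genes did not, with differences between -0.17 for Cd2ap and 0.36 for Nphs1 and exact permutation p between 0.143 and 0.943 (the smallest possible is 0.0286).

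**Figure D4:**
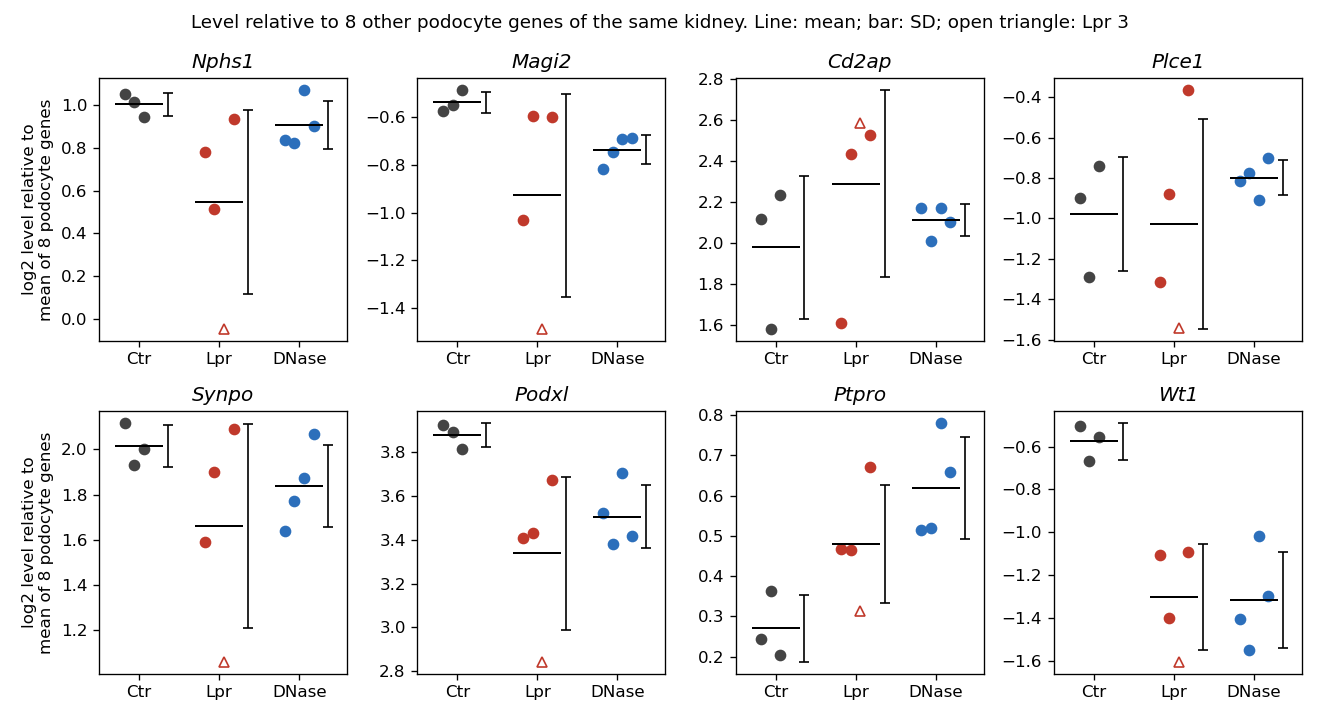
Log2 CPM of each gene minus the mean log2 CPM of 8 other podocyte genes of the same kidney (y axes, which do not start at 0), 1 point per kidney, with group means as lines and SD as bars for Ctr (n = 3), Lpr (n = 4) and DNase (n = 4). Wt1, Podxl and Magi2 lie lower in every Lpr and DNase kidney than in every Ctr kidney, and the open triangle is Lpr 3.

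A ratio of counts within a kidney does not depend on how libraries are scaled, and the counts of each gene were divided by those of Nphs1. The ratio of Ptpro to Nphs1 was between 0.572 and 0.637 in Ctr, 0.806 and 1.28 in Lpr and 0.802 and 0.845 in DNase. Lpr 3 set the upper end, and the ratio was higher in all 8 MRL/lpr kidneys than in Ctr. The ratio of Wt1 to Nphs1 was lower in DNase, between 0.193 and 0.235, than in Ctr, between 0.312 and 0.353, and than in Lpr, between 0.244 and 0.337. The highest Lpr value was that of Lpr 3, and the other Lpr kidneys reached 0.270, below Ctr. The ratio of Podxl to Nphs1 was between 7.32 and 7.35 in Ctr and between 5.73 and 6.45 in DNase. The other 4 genes overlapped between the groups. Of the 7 ratios, 1 did not overlap between Lpr and Ctr, 3 between DNase and Ctr and 1 between DNase and Lpr, against 34.6%, 27.2% and 16% of all genes tested, and these ratios were not tested further, since they were chosen after the values of the genes were seen.

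Within groups the 8 genes moved together mainly through Lpr 3. After subtraction of group means, the 28 pairs of genes had a median Pearson r of 0.86 over the 11 libraries, with 15 pairs over 0.8. Without Lpr 3 the median was -0.007 over 10 libraries, with 1 pair, Nphs1 with Ptpro, over 0.8. The genes whose log2 CPM followed Nphs1 most closely over all 13972 genes with a mean of at least 1 CPM were Endov, Klhl3, Whrn, Ndst2 and Abcb10, with r between 0.987 and 0.995 over 11 libraries and between 0.895 and 0.963 without Lpr 3. The points of a library share its depth and its length trend, and the values are a description.

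The other genes of the podocyte were taken from 5 lists, of slit diaphragm, actin, transcription factor, basement membrane and adhesion, and other podocyte genes. Of their 118 genes 116 were tested. Between Lpr and Ctr 4 were higher and 1 lower, against 10.2% of all genes called in either direction. Without Lpr 3 these became 10 higher and 6 lower, against 17.8%. Between DNase and Ctr 16 were higher and 7 lower, against 21.7%. None, 0 genes, passed between DNase and Lpr by edgeR or DESeq2. The lists shift little as a whole, with medians of the log2 fold change between -0.27 and 0.13 for Lpr and between -0.13 and 0.09 for DNase against Ctr.

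In the slit diaphragm list, 2 of 24 genes tested were higher in Lpr and 7 in DNase, and 0 were lower in either. Without Lpr 3, 4 were higher in Lpr (Kirrel2, Fyn, Nck1 and Sh3kbp1) and 0 lower. Kirrel2, a nephrin-like adhesion protein, had the largest fold, with 0.0955 CPM in Ctr, 0.892 CPM in Lpr and 0.937 CPM in DNase (log2 fold changes 3.16 and 3.22, adjusted p = 0.00914 and 0.00087 by edgeR), at levels of less than 1 CPM. Nck1, an adaptor that binds phosphorylated nephrin, and the kinase Fyn, which phosphorylates it, rose in DNase by 0.54 and 0.51 on the log2 scale (adjusted p = 0.00289 and 0.00723 by edgeR), and Fyn rose in Lpr by 0.78 (adjusted p = 0.0497 by edgeR). Sh3kbp1, a relative of Cd2ap, rose in DNase by 0.76 (adjusted p = 0.0129 by edgeR) and had 0.71 in Lpr (adjusted p = 0.101), or 0.76 without Lpr 3 (adjusted p = 0.0477). Fyn, Nck1, Sh3kbp1 and Vasp are also expressed in leukocytes, whose markers are given above.

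In the actin list 1 of 30 genes tested was higher in Lpr and 5 in DNase, and 0 were lower. Without Lpr 3, Vasp, Inf2 and Cfl1 were higher and Kank1 was lower in Lpr, 3 and 1 genes. Vasp, which promotes actin filament growth, rose by 0.85 on the log2 scale in Lpr and by 0.52 in DNase (adjusted p = 0.0338 and 0.00242 by edgeR). The formin Inf2, in which mutations cause glomerulosclerosis, rose by 0.85 in DNase (adjusted p = 0.00442 by edgeR) and had 0.92 in Lpr (adjusted p = 0.0728), or 1.07 without Lpr 3 (adjusted p = 0.00999), and the septin gene Septin7 rose by 0.35 in DNase (adjusted p = 0.0185 by edgeR). Anln, an actin-binding protein of cell division, had a log2 fold change of 1.45 in Lpr (adjusted p = 0.1 by edgeR). Nearest to the threshold between DNase and Lpr were Arhgap24, Kank4 and Kank1, with log2 fold changes of 0.30, 0.41 and 0.37 (adjusted p = 0.854 by edgeR for each).

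Of 18 transcription factors, Tcf21 fell and Nr3c1, the glucocorticoid receptor, and Klf6 rose in DNase, with log2 fold changes of -0.46, 0.41 and 0.30 (adjusted p = 0.0182, 0.0281 and 0.0465 by edgeR). In Lpr 0 of 18 passed, with Klf6 at 1.46 and Lmx1b at -0.85 (adjusted p = 0.155 and 0.334 by edgeR). Klf6 spread widely between Lpr kidneys, at 121 ± 101 CPM (SD, n = 4), against 44.5 ± 3.68 CPM in Ctr (n = 3). Without Lpr 3, 1 of 18 was higher and 1 lower in Lpr, and the lower was Tcf21, with a log2 fold change of -0.64 (adjusted p = 0.0171 by edgeR). For DNase against Lpr, Klf15, Klf6 and Nr3c1 had log2 fold changes of 0.34, -1.14 and 0.46 (adjusted p = 0.854 by edgeR for each).

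In the basement membrane and adhesion list 0 of 21 genes passed in Lpr and 2 fell in DNase. Npnt, the integrin ligand nephronectin, and Col4a5, a chain of type IV collagen, had log2 fold changes of -0.45 and -0.65 in DNase (adjusted p = 0.0402 and 0.0471 by edgeR) and -0.50 and -0.73 in Lpr (adjusted p = 0.188 and 0.156). Without Lpr 3, 1 gene was lower in Lpr, Col4a3, another chain of type IV collagen, at -0.51 (adjusted p = 0.0115 by edgeR), and Npnt and Col4a5 had adjusted p of 0.0574 and 0.0529. With Lpr 3, Col4a3 had -0.81 in Lpr (adjusted p = 0.334 by edgeR), and Tln1 had 0.23 in DNase (adjusted p = 0.0583). Between DNase and Lpr, Ilk, Cd151 and Parva had log2 fold changes of -0.16, -0.17 and 0.14 (adjusted p between 0.854 and 0.855 by edgeR).

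Among the 23 other podocyte genes, 1 was higher and 1 lower in Lpr, and 2 were higher and 4 lower in DNase. Cdkn1c, an inhibitor of the cell cycle that marks mature podocytes, rose by 0.92 on the log2 scale in Lpr and by 0.70 in DNase (adjusted p = 0.044 and 0.00387 by edgeR). Ddn, which encodes dendrin, a protein of the slit diaphragm that can enter the nucleus, fell by 1.33 in Lpr and by 0.90 in DNase (adjusted p = 0.0498 and 0.000857 by edgeR). Thsd7a fell and Sema3g rose in DNase, with log2 fold changes of -0.69 and 0.65 (adjusted p = 0.00114 and 0.0025 by edgeR). Dach1 fell in DNase, at -0.55 (adjusted p = 0.00333 by edgeR), and had -0.71 in Lpr (adjusted p = 0.0514). Without Lpr 3, 2 genes were higher (Cdkn1c and Sema3g) and 3 lower (Dach1, Thsd7a and Enpep) in Lpr, and Ddn no longer passed, at -1.17 (adjusted p = 0.0551 by edgeR). Between DNase and Lpr, Podn, Sema3g and Mme had 0.73, 0.47 and 0.38 (adjusted p between 0.85 and 0.854 by edgeR), and in the slit diaphragm list Crb2 and Fyn had 0.54 and -0.26 (adjusted p = 0.854 by edgeR for each).

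**Figure D5:**
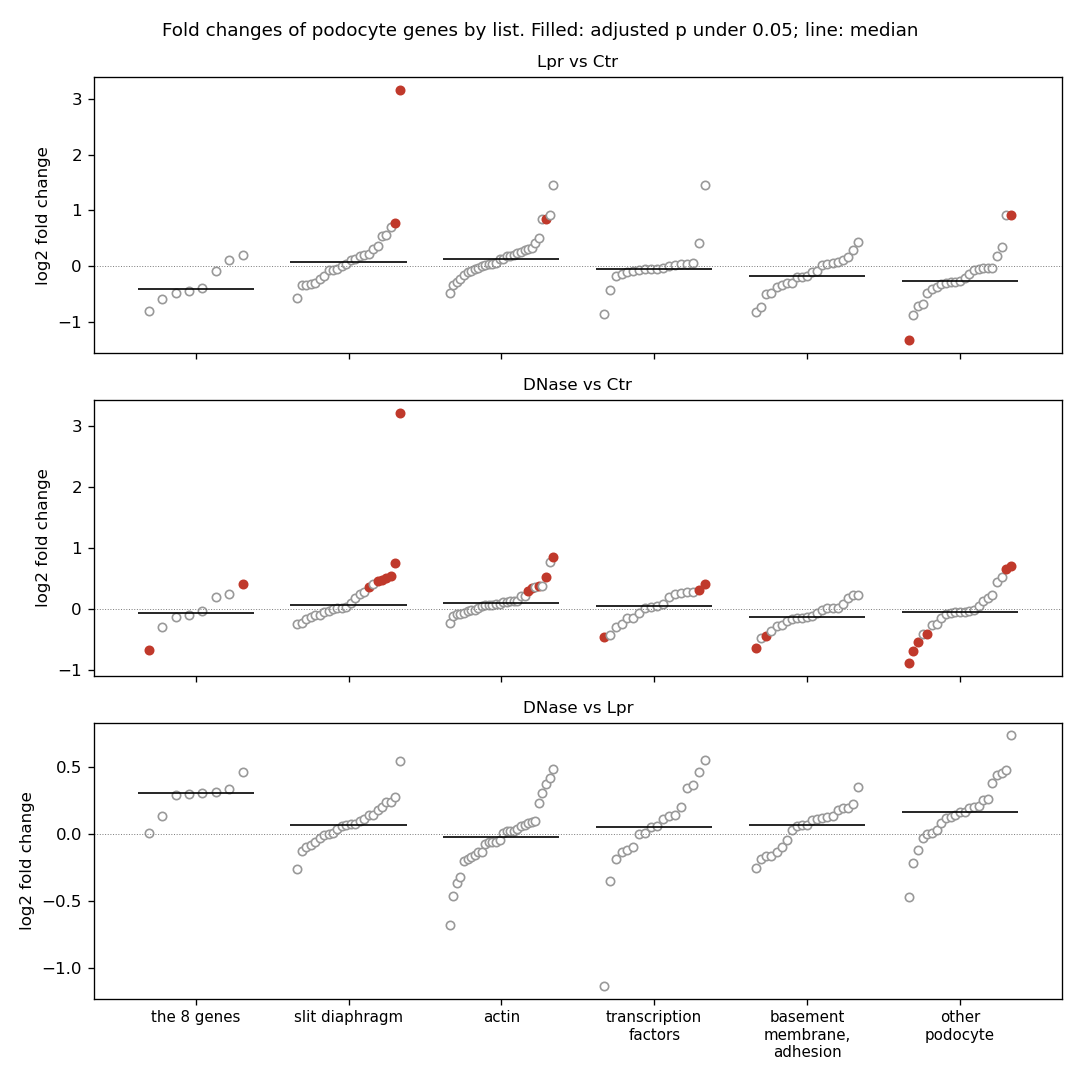
Log2 fold changes (y axes, which differ in range) of the 8 genes and of the genes of 5 podocyte lists, 1 point per gene in order of value, for the 3 comparisons, with medians as lines. Filled points passed an adjusted p under 0.05, 5 list genes in Lpr vs Ctr, 23 in DNase vs Ctr and 0 in DNase vs Lpr.

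Wt1 is also expressed in the parietal cells of Bowman's capsule and in the mesothelium on the kidney surface. The 10 parietal epithelial markers summed to between 627 and 866 CPM in Ctr, 709 and 1150 CPM in Lpr and 757 and 926 CPM in DNase. Lpr 3 set the upper end in Lpr, and the other Lpr kidneys reached 1001 CPM. The 9 mesothelial markers summed to between 263 and 355 CPM in Ctr, 249 and 407 CPM in Lpr and 259.5 and 290.1 CPM in DNase. Here too Lpr 3 was the highest Lpr kidney, and the others reached 313 CPM. Both lists overlapped between the groups, none of their markers was at 0 in every kidney, and their part in the level of Wt1 was not tested. Markers of tissue around the kidney differed between libraries. The 8 adipose markers summed to between 70.3 and 1254 CPM in Ctr, 37.8 and 1399 CPM in Lpr and 43.4 and 292 CPM in DNase. The highest Lpr sum was that of Lpr 3, with at most 786 CPM in the others. The 10 markers of the proximal tubule, the bulk of the kidney cortex, summed to between 24544 and 26102 CPM in Ctr, 11642 and 26051 CPM in Lpr (the highest in Lpr 3, and at most 17277 CPM in the others) and 13693 and 19474 CPM in DNase. Lpr 3 is the library with the length trend. The sum of 8 housekeeping genes was also highest there within Lpr, at 4595 CPM against at most 2953 CPM in the other Lpr kidneys. How far that trend enters these marker sums was not tested. The part of these differences in the values of the 8 genes was not tested either.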

How the data were processed

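The authors deposited whole-number counts per gene, for which the labels name HTSeq after fastp and the build mm10, and FPKM values that equal the deposited counts divided by the library total and a gene length. That length was computed back from both and agreed between libraries within 1% for all genes. The study's methods name HTSeq for the alignment step too, and no other aligner, annotation or strand setting is given in the sources used here. The number of unused columns was 0.

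Pairs of groups were tested with edgeR 4.0.16 (R 4.3.3, filterByExpr, TMM, quasi-likelihood), in the libraries of both groups alone. DESeq2 1.42.0, limma 3.58.1 on log2(FPKM + 1) or log2(FPKM + 0.1) where the mean over libraries reached 0.5 FPKM, RLE scaling, no filter, all 3 groups in 1 fit, the replicate number as a block, an offset for gene length (lowess span 0.3) and leaving out each library were alternatives. Log2 CPM used a prior count of 2. Exact permutation tests ran over libraries. The main edgeR fit, the edgeR fit with the length offset and DESeq2 were checked on simulated data. The exact permutation test was checked on fixed values, and the other alternatives were not checked in this way.

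The 8 genes, the lists and the alternatives were chosen with earlier results of these data known. The rule for names took the 8 genes, the 3 genes of each podocyte list with the smallest p in each comparison, and the 5 genes most correlated with Nphs1. Some genes named by this rule are not reported here, and list genes called in Lpr only without Lpr 3 (Cfl1, Enpep) were named after their values were seen. The calls rest on these mice alone, 1 library each, with 3 or 4 per group. MRL reads were counted on a C57BL/6J genome, and the effect of sequence differences was not tested. Plots used matplotlib 3.10.9 under python 3.11.15.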

Additional observations from a re-analysis of the deposited data

Results flagged for a closer look

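The level of Cd2ap relative to the podocyte reference was 1.61 on the log2 scale in Lpr 1, where the nearest of the other 3 Lpr kidneys was at 2.43. The gap was 0.845 of the range of the group, above the limit for 4 samples. In CPM, Cd2ap in Lpr 1 (98.3) lay within the range of the Ctr kidneys. There were 32 such groups of values tested, of which chance marks about 1 in 20.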

How the results depend on the processing

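With an absolute log2 fold change over 2, the count of the 8 genes was 0 in all 3 comparisons under every alternative run. With the adjusted p alone, the count between Lpr and Ctr moved from 0 to 1 (Wt1) with DESeq2, with all 3 groups in 1 fit and with the gene length offset, and lay between 0 and 2 with each library left out, 2 without Lpr 3. The share of all genes called moved from 10.2% to 15.3%, 15.5% and 13.2% in these fits, in that order. It lay between 5.2% and 17.8% with each library left out, at 17.8% without Lpr 3. The count between DNase and Ctr, 2 genes, was 0 with all 3 groups in 1 fit, 1 with the replicate number as a block (Ptpro at an adjusted p of 0.0664 by edgeR) and between 1 and 3 with each library left out. The share of all genes, 21.7% in the main fit, was 11.4% and 11.6% in the first 2 of these and between 16.5% and 21.5% with each library left out. Between DNase and Lpr the count of the 8 genes was 0 in every fit, against at most 0.152% of all genes, with DESeq2. The 5 of 116 list genes called between Lpr and Ctr became 10 with DESeq2, 12 with the length offset and between 1 and 16 with each library left out (16 without Lpr 3). The shares of all genes in these fits are those given above for Lpr and Ctr. Relative to the podocyte reference, the 4 genes without overlap between Lpr and Ctr became 1 with the median of the reference genes, and between DNase and Lpr their count lay between 0 and 2 with each library left out. The share of all genes was not computed for the median. For DNase and Lpr it was 8.17% without Lpr 3, and it was not computed for the other libraries left out. The cause of these shifts was not tested.

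The sign changed for log2 fold changes near 0. With each library left out, Plce1 between Lpr and Ctr lay between -0.33 and 0.13 (positive without Ctr 3 or Lpr 3), and for DNase against Lpr, Wt1 lay between -0.048 and 0.30 (negative without Lpr 3) and Cd2ap between -0.12 and 0.078 (negative without Lpr 1, Lpr 3 or DNase 1). Cd2ap was also -0.0093 with DESeq2, -0.0092 with RLE scaling, -0.0019 without the filter, -0.0047 with all 3 groups in 1 fit and -0.16 with the length offset. Nphs1 between DNase and Ctr was 0.058 with limma on log2(FPKM + 1), 0.063 on log2(FPKM + 0.1) and 0.0061 with the replicate number as a block, and lay between -0.079 and 0.033 with each library left out (positive without Ctr 2 or DNase 4).

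Equal replicate numbers did not pair the kidneys. Of 10 pairs with the same number, 2 had a correlation of deviations over 0.1 (range -0.34 to 0.21), and 2 of 11 libraries correlated best with their own number. The block lowered the genes called between Lpr and Ctr from 1639 to 1268 and those between DNase and Ctr from 3493 to 1869. Over all genes, calls between Lpr and Ctr were 2824 without Lpr 3, 852 to 915 without a Ctr kidney, 2460 with DESeq2 and 2555 with all 3 groups in 1 fit. Those between DNase and Ctr were 1889 with all 3 groups in 1 fit, and the length offset turned their split from 2107 higher and 1386 lower to 1842 higher and 2422 lower. DESeq2 called 24 genes between DNase and Lpr, where edgeR called 0 (886 at an unadjusted p under 0.05).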
